A study of Bos taurus with 12 samples.

Results

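TGFBR2 encodes the type II receptor for transforming growth factor beta (TGF-beta). It was described here from every row of the deposited methylation tables that carried its symbol, which were 122 of 196275 listed CpG cytosines (sites) and 5 of 1227 listed windows (tiles). The authors had listed these rows because they differed between the same cows, so the members were selected on the contrast that their values describe. All values below are therefore a description with no test of a difference between the groups, and no difference is given as evidence of an effect.

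TGF-beta is a secreted cytokine that binds TGFBR2, a membrane serine/threonine kinase that recruits and phosphorylates the type I receptor TGFBR1. The activated receptor pair phosphorylates SMAD2 and SMAD3, which enter the nucleus with SMAD4 and regulate transcription. In blood the pathway is best known for restraining T cells, and T cells without the receptor become activated and inflammatory in mice.

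Genomic DNA from the whole blood of 12 cows kept under shared farm conditions was read after an enzymatic conversion that separates modified from unmodified cytosines. The labels name a mastitis susceptible group (MSG) of 6 cows that had been culled within 1 year for mastitis complications not recognised at sampling. The mastitis resilient group (MRG) was 6 cows of similar ages that were still in the herd. The numbers in MSG1 to MSG6 and MRG1 to MRG6 only name the cows in record order and pair none of them. The labels enter the group under genotype, but the design text defines it by what happened to each cow, and it gives no treatment. The labels name no breed, parity, cell counts or batch. Culling or staying defines the groups, so any other reason that separated these cows cannot be told apart from the group. Blood is a mixture of cells, and a different share of a cell type cannot be told apart from a different methylation level within cells. The blood label could not be checked against marker genes, because the listed sites are a selected set and hold no expression values.

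The tables place the gene, ENSBTAG00000019832, on the plus strand of chromosome 22 from 5091037 to 5184321 in the build ARS-UCD1.2, a length of 93.3 kb. A second annotated start lies at 5110171. Of the 122 sites, 116 lay before the first start, 5 lay inside the gene and 1 lay 2086 bases beyond its end. The annotation classed 117 sites as distal intergenic, 3 as intronic and 2 as 3′ UTR. None lay within 3 kb of the first start, and the upstream sites stood between 6.42 kb and 323.0 kb from it. The tables pair each site with a gene by position, which says nothing of whether the site acts on that gene. No listed site with the symbol of another gene lay between the first member at 4768076 and the last at 5186407. The nearest such sites outside were at 4732536 and 5201620. Listed sites without a symbol, 1980 on the chromosome, were left out of this search, so some may lie between the members. In the RefSeq gene table of the later assembly ARS-UCD2.0, the neighbour just before TGFBR2 was the pseudogene LOC100140865 and the neighbour just after it was GADL1.

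Methylation was lower in MSG at 101 of the 122 TGFBR2 sites and higher at 21, as differences of the cow means. Over all listed sites 47.3% were lower in MSG, and as the sites were listed for this difference nothing is read from the gap. The lower sites differed by between 21.4 and 55.9 percentage points, with a median of 35.8. The higher sites differed by between 19.2 and 39.7 points, with a median of 29.6. In the authors' deposited table the same sites held differences from -58.97 to 47.2 points, none of opposite direction, and the smallest absolute value was 25.7 with a largest q-value of 0.00948. The smallest over all sites of the authors' deposited table was 25 points and the largest q-value 0.01, so the members reached down to the listing threshold. Sites outside that threshold were not analysed here.

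The direction was not spread evenly along the chromosome. Linking sites at most 15 kb apart gave 9 stretches, a distance chosen after the values were seen. One stretch, from 4859995 to 4935618, held 81 of the 122 sites, and 80 of those were lower in MSG. It is 75.6 kb long and lies between 155.4 kb and 231.0 kb before the first start. Another, from 4790821 to 4816774, was mixed, with 8 sites lower and 11 higher. The stretch across the first start, from 5056673 to 5098802, held 6 lower and 5 higher sites. Counted in runs of sites at most 1 kb apart, the members formed 47 runs, of which 26 were single sites and 3 held both directions.

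**Figure D1:**
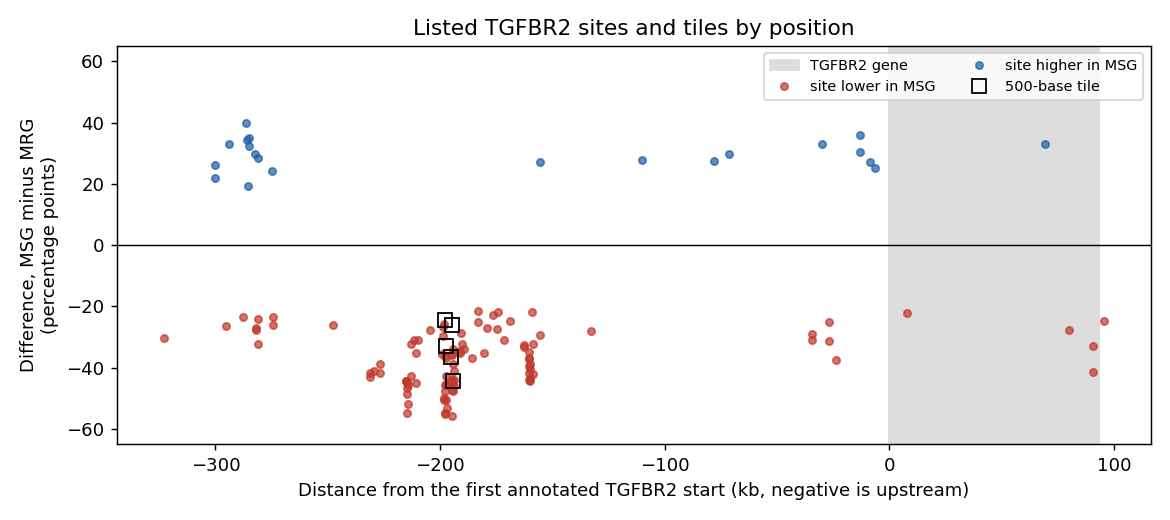
Difference in percent methylation between the MSG and MRG means (vertical axis, percentage points) for each listed TGFBR2 site and tile, by distance from the first annotated start (horizontal axis, kb); points are sites, open squares are tiles and the grey band is the gene. Of the sites, 80 of the 101 lower ones stand in the stretch 155.4 to 231.0 kb upstream, where all 5 tiles also lie, and the higher ones stand mostly farther out or near the start.

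Averaged over the 101 lower sites, the MSG cows ranged from 6.12% to 49.4% with a median of 23.3%, and the MRG cows from 30.5% to 84.4% with a median of 74.7%. The mean was 26.9% ± 18.8 (SD, n = 6) in MSG and 63.5% ± 25.7 (SD, n = 6) in MRG. The groups overlapped. MSG1 was lowest at 6.12%, followed by MSG6 at 11.3% and MSG3 at 15.8%. MSG2 stood at 30.9%, and MSG5 and MSG4 were highest at 48.0% and 49.4%. Among MRG cows, MRG1, MRG2 and MRG3 lay within 83.3% to 84.4%, and MRG4 was at 66.1%. MRG5 at 32.7% and MRG6 at 30.5% lay between the MSG cows. The difference of the group means was -36.6 points, and leaving out each cow in turn moved it between -43.2 and -32.4 points.

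At the 21 higher sites the split between cows was another one. The MSG cows ranged from 85.5% to 93.5% with a median of 90.9%, and the MRG cows from 36.6% to 88.9% with a median of 57.9%. The mean was 90.6% ± 3.05 (SD, n = 6) in MSG against 61.1% ± 23.3 (SD, n = 6) in MRG, a difference of 29.5 points. All MSG cows were high. MRG3 at 36.6%, MRG1 at 38.2% and MRG2 at 49.7% were the low ones, and these were the cows highest at the lower sites. MRG4 at 87.0% and MRG6 at 88.9% overlapped the MSG cows, and MRG5 stood between at 66.1%.

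**Figure D2:**
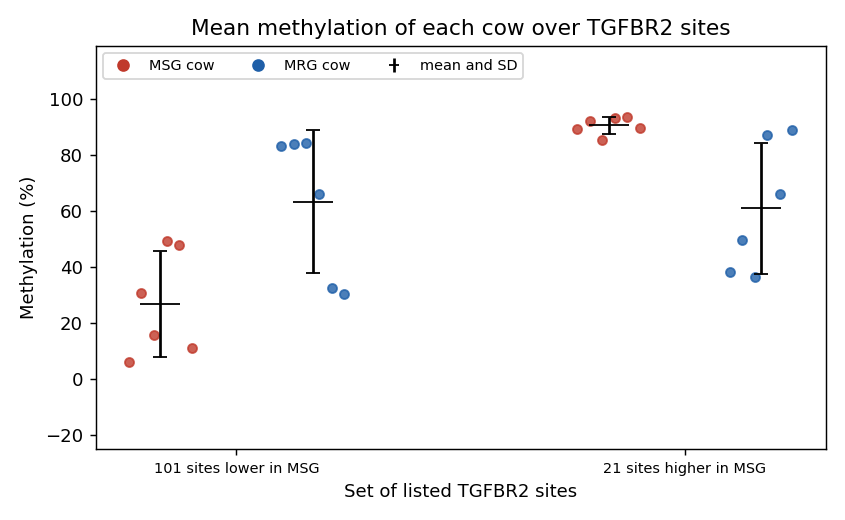
Mean percent methylation (vertical axis) of each cow over the 101 TGFBR2 sites lower in MSG and over the 21 higher ones (horizontal axis); points are cows, and the cross lines give the mean and SD of 6 cows. At the lower sites MRG5 (32.7%) and MRG6 (30.5%) stand among the MSG cows, and at the higher sites MRG1 to MRG3 (36.6% to 49.7%) carry the low values.

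The ranges of the 2 groups stood apart at 1 of the 122 sites and at 0 of the 5 tiles. Over all listed rows this held for 2.36% of sites and 6.03% of tiles. The site was 4804467, lower in MRG, and the gap between the nearest cows there was 1.19 points. The count depends on single cows. It was 5 sites without MSG5, 3 without MRG6, 2 without each of MSG1, MSG3, MSG6 and MRG3, and 1 without any of the other cows. The shares over all listed rows moved as well when 1 cow was left out in turn, to between 3.69% and 4.38% of sites and between 7.66% and 11.1% of tiles. Without MSG5 and without MRG6 they were 4.27% and 4.25% of sites. Without MSG4, 1 of the 5 TGFBR2 tiles had no overlap, and without any other cow none had. The shares over all rows and the tile counts with a cow left out were chosen after the values were seen.

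Low values other than 0 were rare. Of 1440 measured cow values at the TGFBR2 sites, 32.4% were exactly 0, 1.60% were above 0 and under 25%, 26.5% were between 25% and 75%, and 39.6% were above 75%. Over all listed sites the same shares were 21.7%, 3.54%, 37.3% and 37.5%. These level classes were chosen after the values were seen. At least 1 cow was at exactly 0 at 115 of the 122 TGFBR2 sites, or 94.3%, against 78.3% of all listed sites. The read counts behind each percentage were not tied to cows, so how many reads stand behind a 0 is unknown.

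A cow whose own genome has a thymine in place of the cytosine reads as unmethylated after this conversion. The genomes of the cows were not analysed here, and the part of such variants in these values was not tested. The level classes above, and the strands and sets of cows below, are given as values only. An unmethylated CpG would be at 0 on both strands as well, so the strands cannot tell it from such a variant. The 122 sites lay in 88 CpGs, and 34 CpGs were listed on both strands, all 34 with the same direction on both. The median absolute difference between the strands in 1 cow was 2.58 points, against 5.56 over all CpGs listed on both strands. Where a cow was at 0 on either strand, it was at 0 on both in 155 of 156 cases, or 99.4%. The share was 96.5% over all CpGs listed on both strands.

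At the lower sites the cows at 0 came from both groups in unequal number. A cow of MSG was at 0 at 98 of the 101 sites and a cow of MRG at 60. MSG1 was at 0 at 92 sites, MSG6 at 73, MSG3 at 66, MSG5 at 46, MSG2 at 44 and MSG4 at 13. In MRG the counts were 48 for MRG5, 44 for MRG6, 10 for MRG4, 7 for MRG3, 3 for MRG2 and 0 for MRG1. Thus the MRG cows with the most zeros had about as many as MSG2 and MSG5. Every measured MSG cow was at 0 at 12 of the lower sites.

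At the higher sites the zeros were nearly all in MRG. MRG3 was at 0 at 11 of the 21 sites, MRG2 at 6 and MRG1 at 1, and a cow of MSG was at 0 at 1 site. Every measured MSG cow was above 75% at 16 of the 21. The lowest cow of all 12 was MRG1, MRG2, MRG3 or MRG5 at 20 of the 21. At the remaining site, 4935570, MSG1, MSG3, MRG1 and MRG2 were tied at 0.

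**Figure D3:**
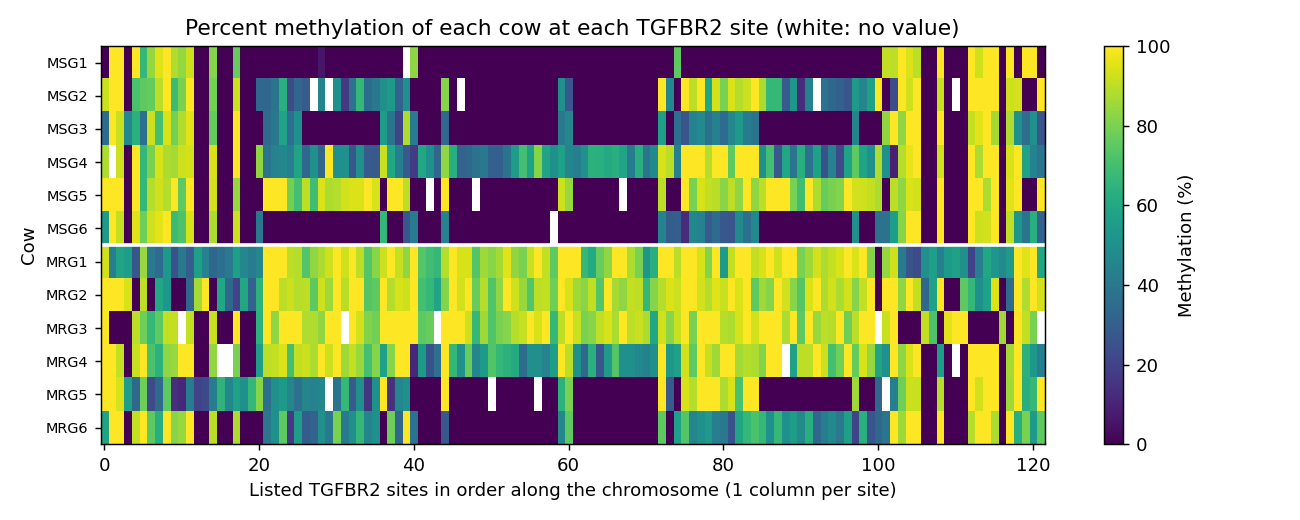
Percent methylation (colour, 0 to 100) of each cow (rows, MSG above and MRG below the white line) at each of the 122 TGFBR2 sites in chromosome order (columns); white cells have no value. Blocks of neighbouring columns share the same cows at 0, with MSG1 at 0 at 92 lower sites and MRG1 at 0 at none of them.

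Grouping sites by which cows were at exactly 0 gave 8 sets that hold 98 of the sites, a grouping chosen after the values were seen. A cow without a value was allowed in either state. The largest set had MSG1, MSG2, MSG3, MSG5, MSG6, MRG5 and MRG6 at 0 together at 28 sites, all between 4891925 and 4899892. At these sites MSG4 averaged 50.5% and MRG4 51.9%, while MRG1, MRG2 and MRG3 averaged 82.6%, 84.0% and 86.2%. The cows at 0 were 5 of MSG and 2 of MRG, the pair near the middle was 1 of each group, and the high cows were all of MRG.

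In the set of 16 sites with only MSG1 at 0, MSG6 averaged 39.2%, MSG3 41.3% and MRG6 52.8%, and the other 8 cows averaged between 88.8% and 95.1%. These sites ran from 4768076 to 5186407, the full length of the region. A set of 15 sites had MSG1, MSG3, MSG6 and MRG5 at 0 where measured. They lay between 4928218 and 4932242, apart from the site 4876185. MRG5 had no value at 4876185 and was at 46.2% on the other strand of that CpG. Over the 15 sites MSG2 averaged 45.3%, MRG6 49.9% and MSG4 50.8%, and the remaining 5 cows lay between 87.8% and 93.6%.

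A set of 11 sites, all higher in MSG, had MRG3 at 0. MRG1 averaged 42.1% and MRG2 79.9% at them, and the other 9 cows averaged between 91.9% and 98.0%. These sites lay from 4790821 to 5160439 and included intron 4 of the gene. Smaller sets were MSG1 and MSG6 at 0 at 9 sites, MSG1, MSG3 and MSG6 at 0 at 8 sites, and MRG2 at 0 at 5 higher sites. At 6 lower sites between 4809160 and 4816774 all MSG cows were at 0 together with MRG3, MRG4 and MRG6.

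**Figure D4:**
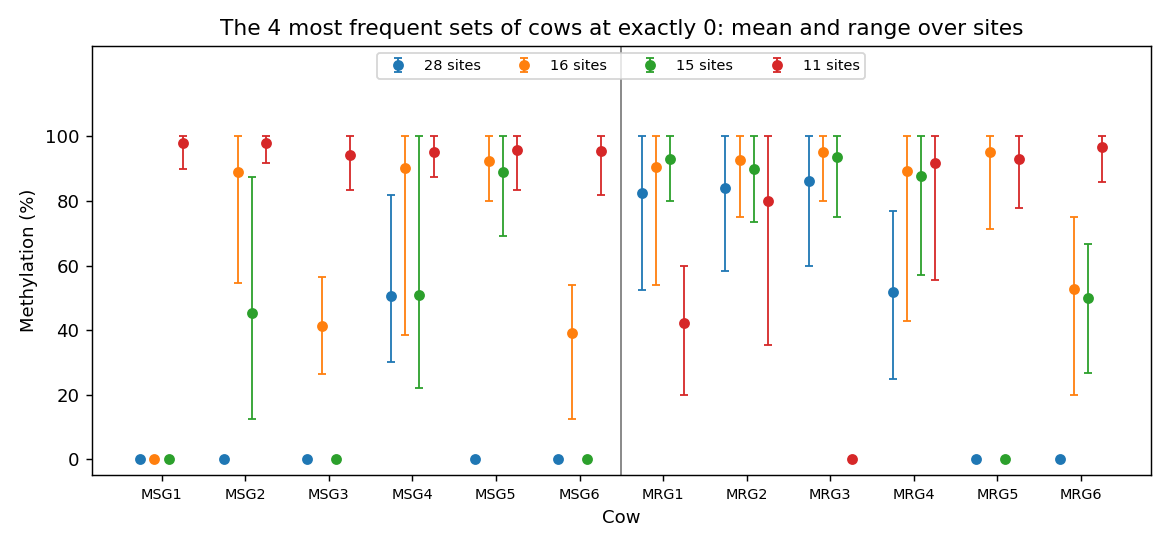
Mean percent methylation (vertical axis) of each cow (horizontal axis) over the sites of the 4 largest sets of cows at exactly 0; bars span the lowest and highest value over the sites of the set. The blue set of 28 sites has 7 cows at 0, MSG4 at 50.5% and MRG4 at 51.9%, and MRG1 to MRG3 at 82.6% to 86.2%; the red set of 11 sites has only MRG3 at 0.

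Of the runs, 6 held 5 sites or more. The run from 4891925 to 4894125 held 16 sites, all lower in MSG, and its mean was 11.2% ± 19.0 (SD, n = 6) in MSG and 53.6% ± 39.7 (SD, n = 6) in MRG. In MSG its cows ranged from 0% to 49.7% with a median of 4.12%, and in MRG from 1.70% to 87.0% with a median of 70.1%. MSG4 was the only MSG cow above 7.14%, while MRG5 at 7.14% and MRG6 at 1.70% were as low as the other MSG cows.

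The run from 4896043 to 4897244 held 13 sites, all lower, at 13.8% ± 21.0 (SD, n = 6) in MSG and 56.9% ± 38.1 (SD, n = 6) in MRG. Its MSG cows ranged from 0% to 55.2% with a median of 6.29%, and its MRG cows from 9.36% to 89.5% with a median of 71.5%. The same cows were apart as in the run before it, with MSG4 high in MSG and MRG5 and MRG6 low in MRG.

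The run from 4930432 to 4932242 also held 13 lower sites but ordered the cows otherwise. MSG ranged from 0% to 88.6% with a median of 22.3%, and MRG from 6.59% to 92.4% with a median of 88.3%. Here MSG5 was the high MSG cow at 88.6%, and MRG6 was at 47.0%. The run from 4875993 to 4876773 held 8 lower sites with MSG between 0% and 89.1% (median 20.8%) and MRG between 45.7% and 93.3% (median 90.8%). MSG5 at 89.1% and MSG4 at 49.2% reached into the MRG range, in which MRG5 and MRG6 were the low cows at 45.7% and 48.6%.

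The remaining long runs lay farther upstream. The run from 4804467 to 4806164 held 5 sites, all higher in MSG, with MSG cows between 82.9% and 90.3% (median 86.9%). Its MRG cows lay between 22.5% and 80.9% (median 59.7%). MRG2 at 22.5%, MRG5 at 31.4% and MRG1 at 38.7% were low there, and MRG3, MRG4 and MRG6 were within 80.7% to 80.9%. The run means of the groups did not overlap, in a run made of sites listed as higher in MSG. The run from 4808849 to 4810055 held 4 lower and 2 higher sites, and its cow means spanned 28.6% to 32.2% in MSG and 30.4% to 52.2% in MRG.

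Tiles of 500 bases, starting every 250 bases, gave a second readout, 1 percentage per window and cow. The 5 TGFBR2 tiles were all lower in MSG, against 43.8% of all listed tiles, again with nothing read from it because they were listed for this contrast. They formed 3 regions between 193.8 kb and 198.0 kb before the start, inside the long stretch, and 22 of the listed sites fell in them. Averaged over the tiles, the MSG cows lay between 23.0% and 61.6% with a median of 25.1%, and the MRG cows between 26.3% and 86.2% with a median of 75.1%. The difference was -31.8 points. MSG6 and MRG5 lacked a value for 1 tile, so their means rest on 4.

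In the tile from 4893001 to 4893500, MSG cows ranged from 42.2% to 66.5% with a median of 46.7%, and MRG cows from 43.8% to 91.7% with a median of 84.5%. The means were 49.6% ± 9.10 (SD, n = 6) and 74.2% ± 22.2 (SD, n = 6). The tile from 4893251 to 4893750 ranged from 12% to 51.9% in MSG with a median of 13.5%, and from 12.4% to 79.6% in MRG with a median of 66.4%. In both tiles MSG4 was the highest MSG cow, and MRG5 and MRG6 lay within the MSG range.

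The tile from 4895751 to 4896250 held 5 cows a group. MSG ranged from 21.7% to 60.9% with a median of 24.3%, and MRG from 26.4% to 86.2% with a median of 81.7%. The tile from 4896001 to 4896500 ranged from 31.1% to 64.1% in MSG (median 42.6%) and from 49.1% to 87.0% in MRG (median 76.7%). MSG4 was again highest in MSG, and MRG6 was lowest in MRG in both.

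The tile from 4896751 to 4897250 had the largest difference, -44.3 points. In MSG 5 cows were at 0% and MSG4 was at 64.8%. In MRG, MRG5 and MRG6 were at 0%, MRG4 was at 60.0%, and MRG2, MRG1 and MRG3 were at 87.4%, 91.1% and 92.0%. In the authors' deposited table the differences of the 5 tiles, in order of position, were -25.5, -34.1, -41.0, -27.9 and -53.6 points.

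The MSG tile means were higher than the means of the listed sites inside them in all 5 tiles, and so were the MRG ones in 4 of the 5. At 4895751 the cows compared were not the same. The tile lacks MSG6 and MRG5, and the site means include them, at 0 where measured. The exception was the tile at 4893251, at 52.6% in MRG against 52.7% for its listed sites. In the tile at 4893001 the mean over its 7 listed sites was 6.65% in MSG and 55.3% in MRG, below the tile means of 49.6% and 74.2%. In the tile at 4896751, whose 5 listed sites averaged 9.93% in MSG and 54.6% in MRG, site and tile values differed by under 1 point.

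**Figure D5:**
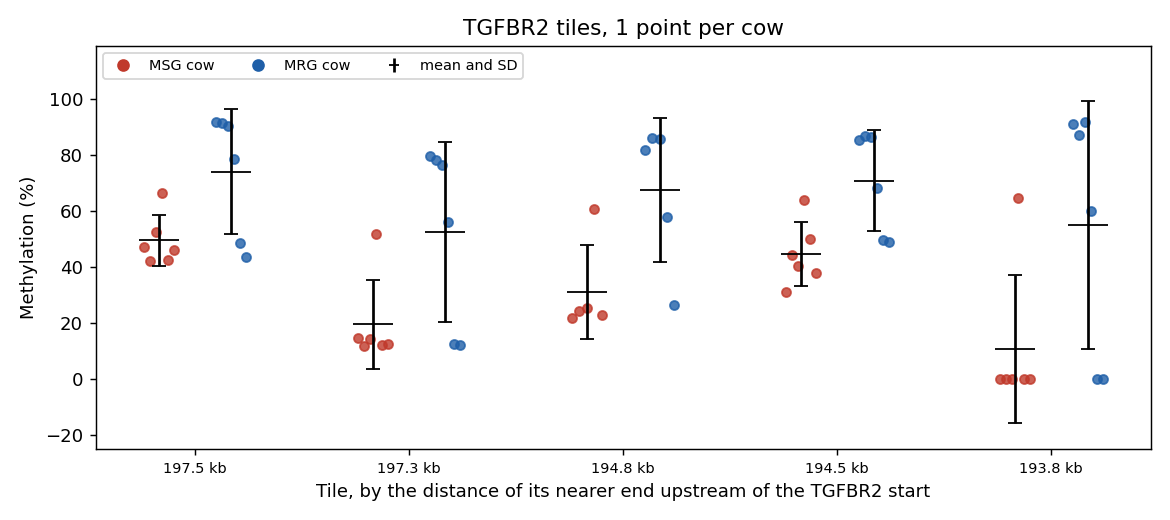
Percent methylation (vertical axis) of each cow in the 5 TGFBR2 tiles, placed by the distance of the nearer tile end before the first start (horizontal axis, kb); points are cows, and cross lines give the mean and SD. MSG4 is the highest MSG cow in each tile (51.9% to 66.5%), and MRG6 lies within the MSG range in each tile.

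Inside the gene the tables listed 5 sites. The site at 5098802 in intron 1 of 6 was at 0% in every MSG cow and in 4 MRG cows, with MRG1 at 47.1% and MRG3 at 85.7%. Its difference of -22.1 points thus rested on 2 cows. The site at 5160439 in intron 4 was higher in MSG, which ranged from 88.2% to 100% with a median of 93.2%, and MRG ranged from 0% to 100% with a median of 69.8%. MRG3 was at 0%, MRG2 at 35.3% and MRG1 at 53.8%, and the other MRG cows were at 85.7% or above.

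The site at 5171153 in intron 5 was lower in MSG, from 0% to 100% with a median of 72.9%, and MRG ranged from 62.5% to 100% with a median of 100%. MSG1 was at 0%, MSG3 and MSG6 were at 50% and 52.4%, and MRG6 was at 62.5%. All the other cows were at 93.3% or above. The site is itself a member of the set with only MSG1 at 0.

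The CpG at 5181751 in the 3′ UTR was listed on both strands. On the plus strand MSG ranged from 0% to 100% with a median of 37.3%, and MRG from 62.5% to 95.0% with a median of 84.1%. On the minus strand, at 5181752, MSG ranged from 0% to 100% with a median of 47.2%, and MRG from 53.3% to 100% with a median of 73.3%. On both strands MSG2 and MSG5 were at 0% and MSG1 was at 100%, above or level with every MRG cow.

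Only 7 sites had no cow at 0, of which 3 were lower and 4 higher in MSG. At 4803165, MSG ranged from 36.8% to 77.8% with a median of 66.7% and MRG from 77.8% to 100% with a median of 87.3%. MSG3 was the low cow there, and the groups met at 77.8%. At 4881258, where MSG1 had no value, MSG ranged from 27.3% to 90.0% with a median of 50% and MRG from 50% to 100% with a median of 96.2%.

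At 4958397, MSG4 at 9.09% and MSG2 at 23.1% were low, and the MSG median was 72.8%. The MRG median there was 100%, with MRG5 low at 42.9%. The 4 higher sites without a zero lay between 4804948 and 4816357. At 4804948 MSG ranged from 70.4% to 95.8% with a median of 93.3%, and MRG from 34.6% to 75% with a median of 61.2%. MSG3 at 70.4% was the only MSG cow below the highest MRG cow. At 4805414 the medians were 96.9% in MSG and 79.2% in MRG, at 4808849 they were 94.6% and 66.5%, and at 4816357 they were 92.3% and 68.6%. The highest MRG cow reached 100% at each of these 3 sites, so the groups overlapped.

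The largest differences were at 4896342 and 4893404 among lower sites. At 4896342, MSG ranged from 0% to 84.6% with a median of 36.4%, and MRG from 75% to 100% with a median of 91.9%, a difference of -55.9 points. MSG5 at 84.6% was the only MSG cow in the MRG range. At 4893404, 5 MSG cows were at 0% and MSG4 was at 30.8%, while 4 MRG cows were between 72.7% and 82.4%, MRG6 was at 0% and MRG5 had no value.

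Among higher sites the largest differences were at 4804467 and 5077879. At 4804467, MSG ranged from 76.2% to 92.9% with a median of 86.5% and MRG from 0% to 75% with a median of 53.3%, a difference of 39.7 points. MRG2 was at 0%, MRG5 at 23.1% and MRG1 at 40%. At 5077879, 13.2 kb before the start, 5 MSG cows were at 100% and MSG3 was at 90.9%. In MRG, MRG3 was at 0%, MRG1 at 20% and MRG2 at 66.7%, and the others were between 88.9% and 100%.

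Among 1423 genes with at least 20 listed sites, of which at least 10 were lower in MSG, the cow means over the lower sites were set beside those of TGFBR2 after subtracting each group's mean. Likeness was Pearson's r over the 12 cows, which share their blood sample and library across all genes. The median r was 0.09 and the lowest was -0.77. The 4 most alike were LOC112443548 (0.89) and STT3B (0.87) on chromosome 22, LYRM9 on chromosome 19 (0.82) and GDF10 on chromosome 28 (0.79). STT3B is a catalytic subunit of the oligosaccharyltransferase that attaches N-glycans to proteins, and GDF10 is a secreted member of the TGF-beta superfamily. Of the first 10 genes, 5 were on chromosome 22, where 75 of the genes compared lie, or 5.27%. At STT3B the MSG cows ranged from 5.56% to 48.2% with a median of 34.9%, and the MRG cows from 24.6% to 94.8% with a median of 60.3%. MSG1 was lowest and MRG6 was the lowest MRG cow at 24.6%, as at TGFBR2.

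Within 1 Mb of TGFBR2, 8 other symbols had listed sites, and TGFBR2 had more than any of them. OSBPL10, an oxysterol-binding protein family gene, had 110 sites with 50 lower in MSG and 1 tile. RBMS3, an RNA-binding protein gene, had 96 sites with 53 lower. STT3B had 66 with 17 lower, GADL1 58 with 27 lower, LOC112443548 47 with 10 lower and LOC112443546 43 with 13 lower and 1 tile. MIR11990 had 9 with 3 lower and LOC112443554 had 8 with 4 lower. The share lower was thus mixed in the neighbours, and the difference from TGFBR2 was not tested. By the likeness above, LOC112443548 (0.89), STT3B (0.87), OSBPL10 (0.79) and GADL1 (0.76) were among the first 10 genes. RBMS3 and LOC112443546 were also compared and were not among them.

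The other genes of the pathway were taken from 6 lists. Of 67 genes in them, 39 had a listed site, 251 sites in all, with 116 or 46.2% lower in MSG, close to the 47.3% of all listed sites. None had a tile. The median difference over these sites was 22.4 points, against 22.7 over all listed sites and -33.07 for TGFBR2. Rows were listed for a large difference either way, so a signed median mostly follows the share lower and is no typical difference. For ligands 5 of 11 genes had sites, 4 of them lower of 27. MSTN, the ligand myostatin that limits muscle growth, had 15 sites, all higher in MSG at 62.0% ± 16.7 (SD, n = 6) against 28.6% ± 22.2 (SD, n = 6). Its cows did not overlap on these means, with MSG from 49.0% and MRG up to 48.5%, although no single MSTN site separated the groups. The means were taken over sites listed for being higher in MSG, so the separation is no sign of stability. None of the 15 sites lay inside the gene, and a cow was at 0 at each.

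Of 12 other receptors of the family, 8 had sites, 26 in all with 8 lower in MSG. TGFBR1, the signalling partner of TGFBR2, had a single site, which was lower. TGFBR3, the co-receptor betaglycan that presents ligand to TGFBR2, had 11 sites with 2 lower. Of the 11, 6 lay inside the gene. Its 9 higher sites averaged 77.9% ± 13.2 (SD, n = 6) in MSG and 48.6% ± 24.3 (SD, n = 6) in MRG.

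The SMAD transducers had sites at 6 of 7 genes, 40 in all with 24 lower in MSG. ZFYVE9, the anchor protein SARA that presents SMAD2 and SMAD3 to the receptor, had 21 sites. Of these, 6 lay inside the gene, and 11 were lower in MSG. Over those 11 the MSG cows ranged from 34.6% to 86.0% with a median of 44.9%, and the MRG cows from 89.5% to 98.2% with a median of 94.1%. These means did not overlap, with MSG3 and MSG4 the high MSG cows at 86.0%. They were averaged over sites listed for being lower in MSG, so the separation is no sign of stability.

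Inhibitors had sites at 8 of 14 genes, 28 in all with 13 lower. Genes of latency and activation had sites at 6 of 11, 68 in all with 27 lower, and THBS1, thrombospondin that can activate latent TGF-beta, held 45 of them with 12 lower. Over its 33 higher sites THBS1 averaged 87.3% ± 11.8 (SD, n = 6) in MSG and 57.9% ± 19.8 (SD, n = 6) in MRG. None of the 45 sites lay inside the gene. Targets had sites at 6 of 12 genes, 62 in all with 40 lower. CCN2, a connective tissue growth factor gene induced by TGF-beta, had 40 sites with 30 lower, at 27.3% ± 24.2 (SD, n = 6) in MSG and 69.1% ± 24.5 (SD, n = 6) in MRG. None of the 40 sites lay inside the gene. MRG3 was the low MRG cow at CCN2 at 20.2%, while at the lower TGFBR2 sites it was the highest.

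Sites at blood cell marker genes also differed between the groups, since they were listed by the same rule. T cell markers had sites at 7 of 9 genes, 54 in all with 27 lower in MSG, and B cell markers at 5 of 7, 10 sites with 4 lower. Monocyte markers had sites at 3 of 6 genes, 45 with 17 lower, NK cell markers at 4 of 6, 28 with 5 lower, and neutrophil markers at 1 of 7, MPO, with 1 of 10 lower. Values are given for CD3E, CD4 and CD163, a choice made after their values were seen. They did not share a direction. Of the 18 sites of CD3E, a chain of the T cell receptor complex, 1 lay inside the gene and 14 were higher in MSG. Over those 14 the MSG cows ranged from 0% to 58.5% with a median of 28.9%, and the MRG cows from 0% to 7.95% with a median of 0%. MSG2 and MSG6 lay within the MRG range there. All 12 listed sites of CD4, the co-receptor of helper T cells, were lower in MSG, and 11 lay inside the gene. Over them the MSG cows ranged from 39.7% to 56.1% with a median of 46.2%, and the MRG cows from 51.5% to 94.8% with a median of 89.9%. MRG6 at 51.5% was the only MRG cow in the MSG range. Of the other T cell markers, CD8A was lower at 3 of 5 sites, CD8B at 5 of 7, CD28 at 2 of 3, CD5 at 1 of 5 and IL7R at 0 of 4. CD163, a scavenger receptor of monocytes and macrophages, was higher in MSG at 25 of its 26 sites, at 93.9% ± 2.09 (SD, n = 6) against 65.1% ± 27.3 (SD, n = 6). Of the 26 sites, 11 lay inside the gene. The part of cell composition in the TGFBR2 values was not tested.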

How the data were processed

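Percent methylation was given per cow by the authors in 2 deposited tables, one of CpG cytosines by strand and one of tiles of 500 bases. Methylated and hydroxymethylated cytosines both count as methylated, since TET2 with T4-BGT shields them from the deaminase APOBEC3A, per the labels' protocols. The build was ARS-UCD1.2, and the tools named were ChIPseeker 1.32.1, DRAGEN, Bismark and fastp 0.23.1, whose roles and order are unstated, per the submitters' processing notes. Which differential test gave the listed rows is not given in the sources used here. Per the file headers, both deposited tables also hold the authors' p-value, q-value, difference in percentage points (a score), nearest gene and distance to its start.

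Columns were tied to cows by name. The tile table's 36 columns of coverage and read numbers name no cow and were not used, so depth is unknown and no counting interval is given.

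Rows with the symbol TGFBR2 were taken with Python 3.11.15, numpy 2.4.6, pandas 2.3.3 and matplotlib 3.10.9. Only the code for likeness, runs and the gap between groups was checked on simulated or made-up values. Means, medians, SDs, runs (1 kb), levels and likeness were computed from the percent values, with no pseudocount, filter or test between groups. Described in full were all tiles, sites inside the gene, sites with no cow at 0, the 2 largest differences in each direction and sites without overlap. Pathway genes with 10 or more listed sites were given values where they are reported. Of the pathway and marker genes 2 are not reported here, although the list counts include them. Members and lists were chosen with earlier results of these data known. No genome sequence was used.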

Additional observations from a re-analysis of the deposited data

Results flagged for a closer look

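In 45 groups of cows looked at, 11 cows stood apart from the rest of their group by Dixon's ratio, the gap to the nearest cow over the whole range, past the critical value for the number of cows. Chance flags about 1 in 20 groups, or 2.25 here, and values piled up at 0 or 100 make the ratio easy to pass. MSG4 stood high in 3 of the 5 tiles, at 51.9% in the tile at 4893251 (ratio 0.932), 60.9% at 4895751 (0.906) and 64.8% at 4896751 (1.0), and at the site 4893404 at 30.8% (1.0). MRG6 stood low at 4893404 at 0% (0.883) and at 5171153 at 62.5% (1.0). MSG3 stood low at 4803165 at 36.8% (0.729), 4804948 at 70.4% (0.771) and 5077879 at 90.9% (1.0). MRG5 stood low at 4881258 at 50% (0.667) and 4958397 at 42.9% (0.875). The tiles at 4893251, 4895751 and 4896751 lie within 4 kb and are not separate observations.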

How the results depend on the processing

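Of 89 alternatives, 77 moved a difference by less than the spread between cows or left a count within 1.5 times its value. The count of lower sites, 101, was 40 at an absolute difference of at least 40 points, 35 with 1 count per run and 3 among sites with no cow at 0; it stayed 101 without each cow in turn. The count of sites without overlap, 1, was 0 with a gap of at least 5 points and 0 among sites with no cow at 0, and between 1 and 5 without each cow; that of tiles, 0, was between 0 and 1, an alternative chosen after the values were seen. The mean differences kept their sign under every alternative run, between -51.4 and -26.3 points at lower sites, 24.6 and 35.1 at higher sites, and -49.95 and -27.1 for tiles. Leaving out each cow gave -43.2 to -32.4, 24.6 to 35.1 and -39.1 to -27.1 points. The sign is fixed by the selection of the rows and says nothing of stability. No paired analysis was possible because the replicate numbers only name cows. Depth per value is unknown, and the rows are a selection, so sites that did not differ were not analysed here.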
